A study of Homo sapiens with 24 samples.

Results

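Genes of 10 protease inhibitors of the epidermis were followed: 4 of the SPINK family (SPINK1, SPINK5, SPINK6 and SPINK7) and 6 serpins (SERPINA12, SERPINB3, SERPINB4, SERPINB7, SERPINB12 and SERPINB13). They were chosen by gene symbol, as every array probe annotated to one of them. Of the 10 genes, 9 had a probe, with 12 probes between them, among 20038 genes that the annotation names with a single symbol. No probe was listed for SPINK5, which was not analysed here. The single SERPINB12 probe was detected on 0 of 24 arrays and was not tested, so 8 genes entered the comparisons, among 12149 features tested. Detection on an array means a detection p under 0.01, a value that sets the probe against that array's negative controls, and a gene was tested when it was detected on at least 4 arrays.

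The cells were N/TERT1 keratinocytes, a telomerase-immortalized human line that forms differentiated keratinocyte layers when calcium is raised, and their total RNA was hybridised to Illumina bead arrays. Each of 6 groups had 4 arrays. Undifferentiated cells were kept in 0.3 mM calcium. The other 5 groups were harvested at day 6 after a switch to 1.2 mM calcium, and differed in what was added at day 3: nothing (called untreated day 6 cells here), 50 µM EGBG, 1 mM spermidine/spermine (SDSM), 50 µM EGBG together with 1 mM SDSM, or 1 mM putrescine. The labels are ambiguous on whether 1 mM is the dose of spermidine and of spermine each or of their mixture. EGBG (ethylglyoxal bis(guanylhydrazone)) is described as an inhibitor of AMD1, adenosylmethionine decarboxylase, which provides the aminopropyl groups that turn the diamine putrescine into spermidine and spermine. All groups are a single cell line, and separate cultures behind the 4 replicates of a group are not stated, so p-values measure the spread between these arrays, which may be partly technical.

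SPINK proteins are small secreted inhibitors built from Kazal domains, which sit in the active site of serine proteases such as trypsin and the kallikreins. Serpins trap a protease that cuts their exposed reactive loop, and the clade B members act mostly inside the cell, on serine or on papain-like cysteine proteases. In the outer epidermis kallikreins cut the junctions that hold corneocytes together, and their inhibitors hold back this shedding. Loss of SPINK5, which encodes the inhibitor LEKTI, causes Netherton syndrome, and loss of SERPINB7 causes Nagashima-type palmoplantar keratosis.

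Each array detected 10348 to 13089 of 47304 probes, and the median correlation of an array with the others of its group lay between 0.967 and 0.991. Of 8 keratinocyte markers with a probe, 5 or 6 were detected on each undifferentiated array and 7 or 8 on every day 6 array. Probes for the melanocyte genes MLANA, TYR, TYRP1, SOX10 and S100B, the fibroblast genes COL1A2, COL3A1, PDGFRA, PDGFRB and LUM, the immune genes PTPRC, CD3E and MS4A1 and all 5 endothelial genes were undetected on all 24 arrays. Other listed genes were detected: COL1A1, ACTA2, CD68 and HLA-DRA in every group, CD14 in every group though on 1 of 4 arrays of EGBG with SDSM, and PMEL and CD207 in the day 6 groups and not in undifferentiated cells. Further listed genes, not tested, were detected in places. Up to 3 fibroblast genes were detected on an EGBG array, and up to 2 melanocyte and 5 immune genes on an array of EGBG with SDSM. Transcripts of AMD1, the target of EGBG, rose with EGBG by 1.26 ± 0.32 (SE) on the log2 scale (adjusted p = 0.0027) and with putrescine by 1.01 ± 0.32 (adjusted p = 0.0322). In bulk RNA, fewer cells making a transcript and less transcript per cell cannot be told apart.

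All levels below are log2 signals after background correction and quantile normalization, and an undetected signal is a reading near the background, not a measured level. Levels of different genes come from different probes and are not compared with each other.

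**Figure D1:**
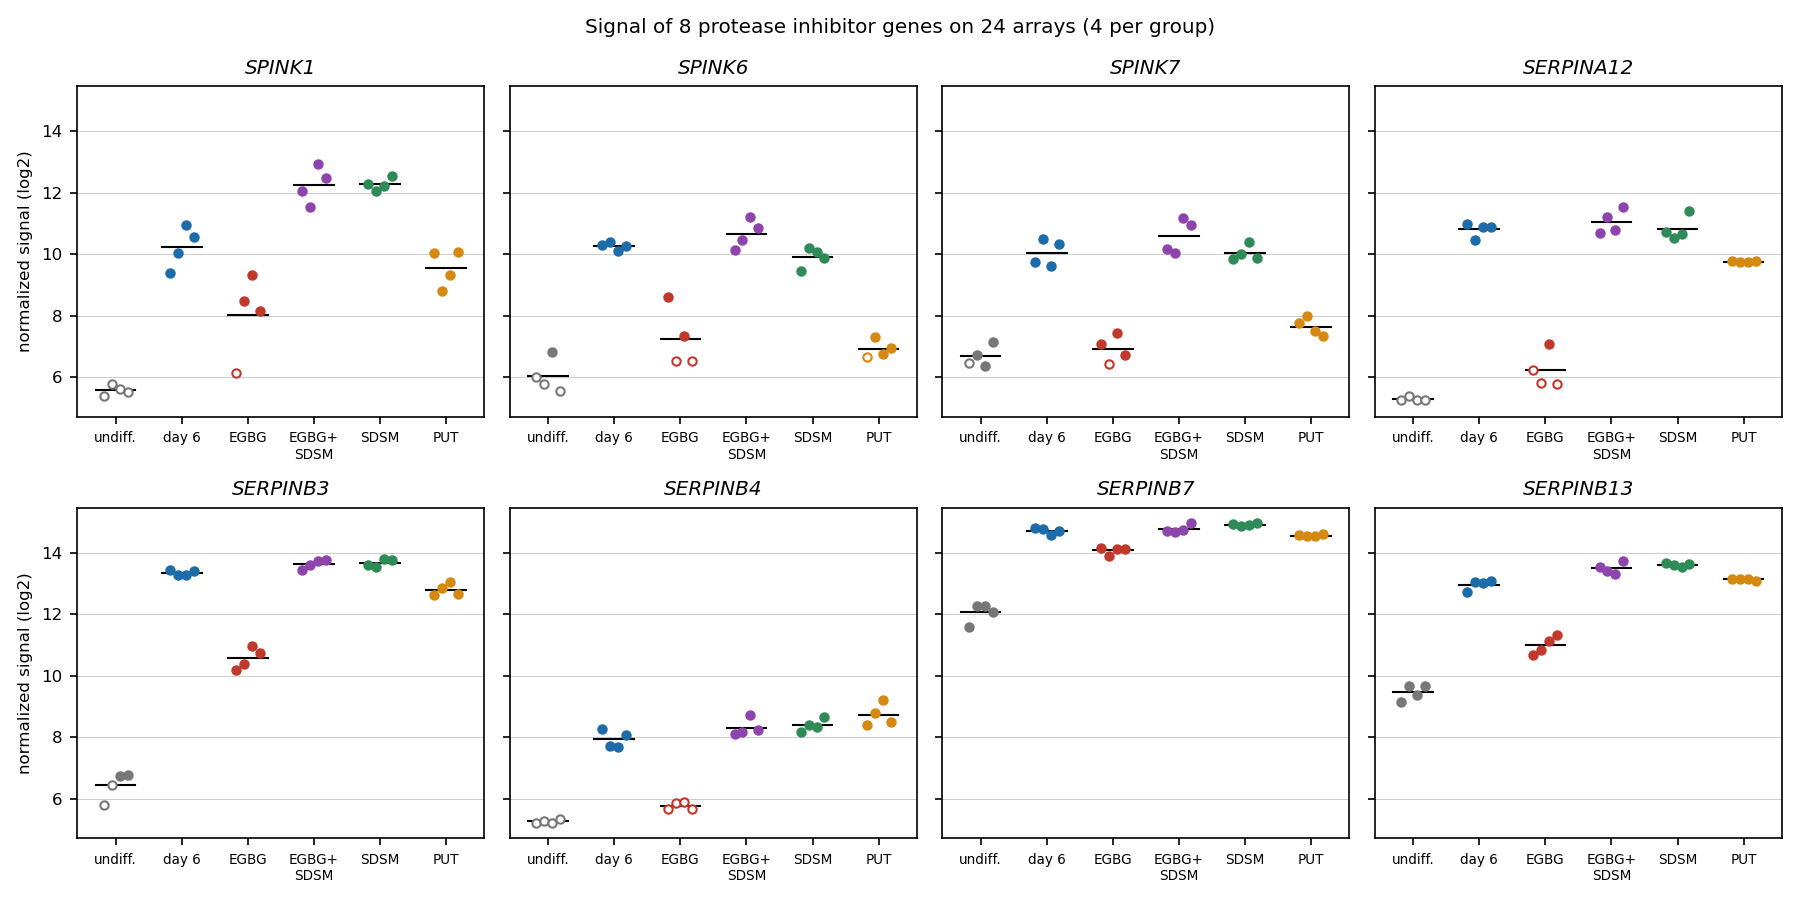
Normalized log2 signal of the 8 tested inhibitor genes, 1 point per array, in the 6 groups of 4; filled points are detected, open points are not (detection p of 0.01 or more), and bars are group means. In all 8 panels the 4 EGBG points lie below the 4 untreated day 6 points and below the 4 points of EGBG with SDSM; SPINK6 and SPINK7 are also low with putrescine.

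SPINK1 encodes the pancreatic secretory trypsin inhibitor. SPINK1 read 5.38, 5.78, 5.61 and 5.52 on the 4 undifferentiated arrays and 9.39, 10.03, 10.94 and 10.56 on the untreated day 6 arrays. None of the undifferentiated signals was detected, and every day 6 signal lay above them. With EGBG SPINK1 read 6.13, 8.47, 9.32 and 8.15, and with EGBG and SDSM together it read 12.04, 11.54, 12.92 and 12.49. The EGBG arrays lay below the untreated range, with replicate 1 far below the others and undetected, and the EGBG with SDSM arrays were all higher than any untreated array. SDSM alone gave SPINK1 signals of 12.29, 12.06, 12.21 and 12.53, and putrescine gave 10.03, 8.81, 9.33 and 10.07. The SDSM arrays were also above every untreated array, and the putrescine arrays overlapped the untreated ones. The SPINK1 group means, from the lowest and with the SD of 4 arrays, were 5.57 ± 0.17 in undifferentiated cells, 8.02 ± 1.35 in EGBG and 9.56 ± 0.60 in putrescine. Higher SPINK1 means followed, 10.23 ± 0.67 in untreated day 6 cells, 12.25 ± 0.59 in EGBG with SDSM and 12.27 ± 0.20 in SDSM. Neighbouring groups in that order overlapped for EGBG and putrescine, for putrescine and untreated cells, and for the groups that received SDSM.

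SPINK6, an inhibitor of kallikreins of the skin, and SPINK7, first found in the esophagus and also a kallikrein inhibitor, lie near each other on chromosome 5. The 250 bases before the start site of each are printed because both genes fell with EGBG and with putrescine. They are from RefSeq on GRCh38.p14, at chr5:148202792-148203041 for SPINK6 and chr5:148312173-148312422 for SPINK7, both on the plus strand. Capitals mark matches to the motifs searched.
SPINK6: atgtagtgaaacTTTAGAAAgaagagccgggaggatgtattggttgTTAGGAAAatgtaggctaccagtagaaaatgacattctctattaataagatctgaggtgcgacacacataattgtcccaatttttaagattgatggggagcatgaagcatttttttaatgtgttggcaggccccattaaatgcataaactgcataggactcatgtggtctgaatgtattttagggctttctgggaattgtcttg
SPINK7: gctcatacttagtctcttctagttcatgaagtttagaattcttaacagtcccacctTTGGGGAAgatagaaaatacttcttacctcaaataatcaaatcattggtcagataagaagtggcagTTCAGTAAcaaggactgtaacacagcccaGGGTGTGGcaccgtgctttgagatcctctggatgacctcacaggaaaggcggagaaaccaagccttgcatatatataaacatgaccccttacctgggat
The searched motifs were AP-1 (TGANTCA), C/EBP (TTNCNNAA), KLF (CCNCACCC) and GRHL (AACNNGTT), on both strands, and no matches overlapped in the windows of the 10 genes. SPINK6 held 2 C/EBP matches, and SPINK7 held 2 C/EBP matches and 1 KLF match. SERPINA12 and SERPINB3 were also called lower both with EGBG and with putrescine. The SERPINA12 window, not printed here, held 2 C/EBP matches and 1 KLF match as well. Over the 10 genes a C/EBP match was in 6 windows, against 33.2% of 35116 RefSeq windows of the same length. Those 6 include SPINK5, which was not analysed, and SERPINB3 and SERPINB4, whose windows were identical at 98.8% of positions. SERPINB4 was called higher with putrescine. KLF was in 3 (16.7% of all windows), AP-1 in 2 (6.57%), those of SERPINB7 and SERPINB13, and GRHL in 1 (3.00%), that of SPINK5. The windows of SPINK6 and SPINK7 had the same base at 59 of 250 positions. A match describes the letters only.

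SPINK6 read 5.99, 5.78, 6.81 and 5.56 on the 4 undifferentiated arrays and 10.29, 10.38, 10.09 and 10.28 on the untreated day 6 arrays. The undifferentiated signal was detected on 1 array, and all untreated day 6 arrays were far above it. With EGBG SPINK6 read 8.60, 6.51, 7.33 and 6.52, and with EGBG and SDSM together it read 10.12, 10.46, 11.21 and 10.85. The EGBG arrays were well under the untreated range, with 2 of 4 detected, and SDSM with EGBG brought the arrays to or above that range. SDSM alone gave SPINK6 signals of 9.45, 10.20, 10.06 and 9.87, and putrescine gave 6.65, 7.32, 6.77 and 6.95. The SDSM arrays overlapped the untreated ones, while the putrescine arrays, with 3 of 4 detected, lay within the range of those with EGBG. The SPINK6 group means, from the lowest and with the SD of 4 arrays, were 6.04 ± 0.55 in undifferentiated cells, 6.92 ± 0.29 in putrescine and 7.24 ± 0.98 in EGBG. Higher SPINK6 means followed, 9.89 ± 0.33 in SDSM, 10.26 ± 0.12 in untreated day 6 cells and 10.66 ± 0.47 in EGBG with SDSM. Undifferentiated cells, putrescine and EGBG overlapped in a chain at the low end, and the 3 remaining groups did so at the high end, with a gap between.

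SPINK7 read 6.46, 6.72, 6.36 and 7.15 on the 4 undifferentiated arrays and 9.74, 10.49, 9.63 and 10.32 on the untreated day 6 arrays. The groups were wide apart, although 3 of the 4 undifferentiated signals were detected. With EGBG SPINK7 read 7.08, 6.42, 7.44 and 6.71, and with EGBG and SDSM together it read 10.18, 10.03, 11.18 and 10.95. The EGBG arrays overlapped the undifferentiated range, with 3 of 4 detected, and those with both compounds reached or passed the untreated range. SDSM alone gave SPINK7 signals of 9.85, 10, 10.38 and 9.88, and putrescine gave 7.76, 7.98, 7.51 and 7.34. The SDSM arrays lay within the untreated range, and all 4 putrescine arrays lay below it and above the highest undifferentiated array. The SPINK7 group means, from the lowest and with the SD of 4 arrays, were 6.67 ± 0.35 in undifferentiated cells, 6.91 ± 0.44 in EGBG and 7.65 ± 0.28 in putrescine. Higher SPINK7 means followed, 10.03 ± 0.24 in SDSM, 10.05 ± 0.42 in untreated day 6 cells and 10.58 ± 0.57 in EGBG with SDSM. The 3 low groups overlapped in a chain, as did the 3 high groups, and no array fell between them.

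SERPINA12 encodes vaspin, a secreted serpin that inhibits the kallikrein KLK7. SERPINA12 read 5.27, 5.40, 5.26 and 5.27 on the 4 undifferentiated arrays and 10.97, 10.47, 10.90 and 10.87 on the untreated day 6 arrays. No undifferentiated array was detected, and the day 6 arrays lay in a narrow band far above. With EGBG SERPINA12 read 6.22, 5.80, 7.09 and 5.78, and with EGBG and SDSM together it read 10.68, 11.20, 10.79 and 11.53. With EGBG the signal was detected on 1 array, replicate 3, and SDSM beside EGBG brought it to or above the untreated range. SDSM alone gave SERPINA12 signals of 10.71, 10.52, 10.64 and 11.42, and putrescine gave 9.77, 9.75, 9.73 and 9.77. SDSM alone left the arrays around the untreated ones, and the putrescine arrays were nearly equal to each other and all below the untreated ones. The SERPINA12 group means, from the lowest and with the SD of 4 arrays, were 5.30 ± 0.07 in undifferentiated cells, 6.23 ± 0.61 in EGBG and 9.75 ± 0.02 in putrescine. Higher SERPINA12 means followed, 10.80 ± 0.23 in untreated day 6 cells, 10.82 ± 0.41 in SDSM and 11.05 ± 0.39 in EGBG with SDSM. The 3 highest groups overlapped, and the other 3 were separate from their neighbours.

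SERPINB3 and SERPINB4 are the squamous cell carcinoma antigens, a pair of close copies on chromosome 18. SERPINB3 inhibits papain-like cysteine proteases such as cathepsin L, and SERPINB4 inhibits chymotrypsin-like serine proteases. The 250 bases before the start site are printed to show how alike the copies are. They are from RefSeq on GRCh38.p14, both on the minus strand, at chr18:63661894-63662143 for SERPINB3 and chr18:63644257-63644506 for SERPINB4. Capitals mark the 3 positions at which they differ.
SERPINB3: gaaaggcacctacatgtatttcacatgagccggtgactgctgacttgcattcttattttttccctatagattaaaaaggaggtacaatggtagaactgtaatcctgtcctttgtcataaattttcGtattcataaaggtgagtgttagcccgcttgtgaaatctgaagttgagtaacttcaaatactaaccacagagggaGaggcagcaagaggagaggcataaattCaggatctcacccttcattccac
SERPINB4: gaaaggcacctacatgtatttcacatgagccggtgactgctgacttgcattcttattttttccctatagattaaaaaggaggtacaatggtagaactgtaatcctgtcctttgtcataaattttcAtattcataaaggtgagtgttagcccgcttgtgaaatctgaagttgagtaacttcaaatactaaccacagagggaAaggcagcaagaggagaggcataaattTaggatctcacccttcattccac
The windows were identical at 247 of 250 positions (98.8%), and the differences lay at positions -125, -50 and -23 from the start site. Both held 2 C/EBP matches. Probes of such copies may also bind transcripts of the other, which was not tested.

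SERPINB3 read 5.81, 6.45, 6.75 and 6.77 on the 4 undifferentiated arrays and 13.43, 13.29, 13.26 and 13.40 on the untreated day 6 arrays. The undifferentiated signal was detected on 2 arrays, and the untreated day 6 arrays differed from each other by little. With EGBG SERPINB3 read 10.17, 10.38, 10.95 and 10.74, and with EGBG and SDSM together it read 13.43, 13.60, 13.72 and 13.76. The EGBG arrays lay between undifferentiated and untreated cells without touching either, and the arrays with SDSM beside EGBG were at or above the untreated ones. SDSM alone gave SERPINB3 signals of 13.60, 13.52, 13.81 and 13.77, and putrescine gave 12.63, 12.85, 13.06 and 12.66. All SDSM arrays lay above, and all putrescine arrays below, the untreated range. The SERPINB3 group means, from the lowest and with the SD of 4 arrays, were 6.44 ± 0.45 in undifferentiated cells, 10.56 ± 0.35 in EGBG and 12.80 ± 0.20 in putrescine. Higher SERPINB3 means followed, 13.35 ± 0.09 in untreated day 6 cells, 13.63 ± 0.15 in EGBG with SDSM and 13.67 ± 0.14 in SDSM. The 3 highest groups overlapped in part, and each lower group was separate from its neighbours. The second SERPINB3 probe read 11.68, 10.06, 10.50 and 10.60 in untreated day 6 cells and 7.93, 7.87, 8.16 and 8.08 with EGBG, and was undetected in undifferentiated cells.

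SERPINB4 read 5.20, 5.28, 5.22 and 5.34 on the 4 undifferentiated arrays and 8.25, 7.72, 7.67 and 8.07 on the untreated day 6 arrays. No undifferentiated array was detected, and all untreated ones were. With EGBG SERPINB4 read 5.66, 5.86, 5.89 and 5.68, and with EGBG and SDSM together it read 8.11, 8.16, 8.72 and 8.23. With EGBG the gene was again undetected on all 4 arrays, and with SDSM beside EGBG it was detected on all 4, at or above most of the untreated range. SDSM alone gave SERPINB4 signals of 8.18, 8.40, 8.33 and 8.64, and putrescine gave 8.40, 8.78, 9.22 and 8.50. The SDSM arrays overlapped the upper part of the untreated range, and all putrescine arrays lay above the untreated ones. The SERPINB4 group means, from the lowest and with the SD of 4 arrays, were 5.26 ± 0.07 in undifferentiated cells, 5.77 ± 0.12 in EGBG and 7.93 ± 0.28 in untreated day 6 cells. Higher SERPINB4 means followed, 8.31 ± 0.28 in EGBG with SDSM, 8.39 ± 0.19 in SDSM and 8.73 ± 0.37 in putrescine. The 4 groups above EGBG overlapped from neighbour to neighbour, with putrescine the highest.

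SERPINB7 was detected on all 24 arrays. SERPINB7 read 11.59, 12.27, 12.28 and 12.08 on the 4 undifferentiated arrays and 14.79, 14.77, 14.58 and 14.71 on the untreated day 6 arrays. The day 6 arrays were all above the undifferentiated ones. With EGBG SERPINB7 read 14.15, 13.89, 14.12 and 14.13, and with EGBG and SDSM together it read 14.69, 14.68, 14.74 and 14.98. The EGBG arrays lay between the untreated and the undifferentiated ones, nearer the untreated, and SDSM beside EGBG gave signals in and around the untreated range. SDSM alone gave SERPINB7 signals of 14.92, 14.87, 14.89 and 14.95, and putrescine gave 14.56, 14.54, 14.53 and 14.60. Each SDSM array was above each untreated one, and the putrescine arrays overlapped the low end of the untreated range. The SERPINB7 group means, from the lowest and with the SD of 4 arrays, were 12.05 ± 0.32 in undifferentiated cells, 14.07 ± 0.12 in EGBG and 14.56 ± 0.03 in putrescine. Higher SERPINB7 means followed, 14.71 ± 0.10 in untreated day 6 cells, 14.78 ± 0.14 in EGBG with SDSM and 14.91 ± 0.03 in SDSM. The 4 highest groups overlapped from neighbour to neighbour, and EGBG and undifferentiated cells stood apart.

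SERPINB13 encodes an inhibitor of the cysteine protease cathepsin L and was also detected on all arrays. SERPINB13 read 9.13, 9.66, 9.36 and 9.68 on the 4 undifferentiated arrays and 12.72, 13.06, 13 and 13.07 on the untreated day 6 arrays. All day 6 arrays lay above the undifferentiated ones. With EGBG SERPINB13 read 10.68, 10.85, 11.13 and 11.31, and with EGBG and SDSM together it read 13.52, 13.39, 13.31 and 13.74. The EGBG arrays fell between the undifferentiated and the untreated range, and with SDSM beside EGBG every array lay above the untreated ones. SDSM alone gave SERPINB13 signals of 13.66, 13.61, 13.52 and 13.64, and putrescine gave 13.16, 13.13, 13.16 and 13.07. SDSM alone also lay above the untreated range, and putrescine overlapped it. The SERPINB13 group means, from the lowest and with the SD of 4 arrays, were 9.46 ± 0.26 in undifferentiated cells, 11 ± 0.28 in EGBG and 12.96 ± 0.17 in untreated day 6 cells. Higher SERPINB13 means followed, 13.13 ± 0.05 in putrescine, 13.49 ± 0.19 in EGBG with SDSM and 13.61 ± 0.06 in SDSM. Untreated cells overlapped with putrescine, and the groups that received SDSM with each other.

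SERPINB12, an inhibitor of trypsin-like serine proteases, read 5.16, 5.17, 5.21 and 5.30 in undifferentiated cells and 6.04, 5.55, 5.60 and 5.73 in untreated day 6 cells, undetected on each array. In the other 4 groups its signals lay between 5.21 and 5.61, also undetected. These readings are near the background and no difference was drawn from them.

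Signals of all 8 tested genes were higher in untreated day 6 cells than in undifferentiated cells. These groups differ both in calcium and in the day of harvest, which cannot be told apart here. SERPINB3, detected on 2 undifferentiated arrays, rose by 6.90 ± 0.18 (adjusted p = 6.63e-20) on the log2 scale. Here ± is the standard error of the fit and the adjusted p is that of limma over all 12149 features. The size for SERPINB3 rests partly on signals near the background. It was 6.15 with the mean of the gene's probes and 7.75 with the deposited table. SERPINB13 rose by 3.50 ± 0.15 (adjusted p = 2.58e-16) and SPINK7 by 3.38 ± 0.26 (adjusted p = 4.31e-11). SPINK6, detected on 1 undifferentiated array, had a fitted difference of 4.22 ± 0.34 (adjusted p = 8.69e-11). With its undetected arrays set to the lowest detected signals it rose at least 12.7-fold. For the genes undetected in undifferentiated cells only bounds can be given, from the lowest detected signals: SERPINA12 rose at least 20.1-fold (adjusted p = 3.85e-16), SPINK1 at least 13.5-fold (adjusted p = 2.26e-09) and SERPINB4 at least 2.74-fold (adjusted p = 1.35e-12). The smallest of the fitted differences was that of SERPINB7, 2.66 ± 0.13 (adjusted p = 7.5e-15), whose undifferentiated signal was well detected. An adjusted p under 0.05 is the threshold throughout. Of all features, 23.8% were higher at day 6, and for 19.9% all day 6 arrays lay above all undifferentiated arrays, as they did for the 8 genes. The median difference was 3.86 over the 8 genes, or 3.63 with the 3 undetected genes at their bounds, and -0.10 over all features. Only SERPINB7 and SERPINB13 were detected on all 4 undifferentiated arrays, and the other 6 genes could enter the test only through day 6 arrays, so the count of 8 is a description.

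Listed markers of other cell types also differed between undifferentiated and untreated day 6 cells. PMEL rose at least 2.97-fold (adjusted p = 5.7e-09) and CD207 at least 8.46-fold (adjusted p = 2.56e-08), both undetected in undifferentiated cells. COL1A1 rose by 2.17 ± 0.27 (adjusted p = 1.93e-07), and ACTA2 had a difference of -1.42 ± 0.15 (adjusted p = 1.8e-08). CD14 (-0.87 ± 0.31, adjusted p = 0.0177) and HLA-DRA (-0.47 ± 0.15, adjusted p = 0.0094) were lower at day 6. The summed signals in undifferentiated and untreated day 6 cells were 326 to 336 and 516 to 560 for the 7 melanocyte probes, 833 to 1031 and 745 to 1464 for the 8 fibroblast probes, and 4272 to 6486 and 4568 to 5530 for the 8 immune probes. The part of these markers in the results at day 6 was not tested.

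EGBG, compared with untreated day 6 cells, lowered all 8 tested genes. SERPINA12, detected on 1 of 4 EGBG arrays, was at least 16.7-fold lower when its undetected arrays were set to the lowest detected signals (adjusted p = 1.54e-13). SPINK7 had a difference of -3.13 ± 0.26 (adjusted p = 7.62e-10; detected on 3 EGBG arrays) and SPINK6 one of -3.02 ± 0.34 (adjusted p = 1.19e-07; detected on 2). SERPINB3 had a difference of -2.78 ± 0.18 (adjusted p = 1.27e-11) and SERPINB13 one of -1.97 ± 0.15 (adjusted p = 1.05e-10). SERPINB4, undetected with EGBG, was at least 2.48-fold lower (adjusted p = 3.65e-10), and SERPINB7 had a difference of -0.64 ± 0.13 (adjusted p = 0.000324). With the deposited table the SERPINB7 difference was larger, -1.01 (adjusted p = 4.09e-05). SPINK1 had a difference of -2.21 ± 0.45 (adjusted p = 0.000304), which became -1.58 (adjusted p = 0.000881) without EGBG replicate 1, its undetected array. Of all features, 17.7% were lower with EGBG, and for 14.4% all EGBG arrays lay below all untreated ones, as for the 8 genes. Only SERPINB3, SERPINB7 and SERPINB13 were detected on all 4 EGBG arrays. The other genes needed arrays of other groups to enter the test, so the count of 8 is a description. The median difference was -2.50 over the 8 genes, also with SERPINB4 at its bound, and 0.07 over all features.

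By adjusted p alone, 7 of the 8 genes were higher with EGBG than in undifferentiated cells, and 5 of these are counted as higher here. EGBG cells had SERPINB3 signals higher than undifferentiated cells by 4.12 ± 0.18 (adjusted p = 2.46e-15), SERPINB7 by 2.02 ± 0.13 (adjusted p = 2.36e-12) and SERPINB13 by 1.54 ± 0.15 (adjusted p = 2.6e-09). The size for SERPINB3 again rests partly on undifferentiated signals near the background, and was 3.41 with the mean of its probes. SPINK1 was at least 2.92-fold higher (adjusted p = 5.54e-05), and at least 4.52-fold without EGBG replicate 1. SPINK6 differed by 1.20 ± 0.34 (adjusted p = 0.00435), although its arrays overlapped, and by 0.75 (adjusted p = 0.029) without EGBG replicate 1. SPINK6 was detected on 2 EGBG arrays and 1 undifferentiated array, so its difference rests partly on signals near the background. SPINK7 did not pass the threshold, with 0.24 ± 0.26 (adjusted p = 0.466) and a 95% interval of -0.29 to 0.78. SERPINA12 and SERPINB4 also passed it (adjusted p = 0.00179 and 0.0141), but SERPINB4 was undetected in both groups and SERPINA12 was detected on a single EGBG array, so neither is counted as higher and no fold is given. Of all features, 23.1% were higher by adjusted p alone, the rule that gave 7 of the 8 genes.

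Other markers moved with EGBG as well. Of the 8 keratinocyte markers tested, the cornified envelope precursor IVL fell, by a difference of -3.16 ± 0.16 (adjusted p = 1.24e-13), and the other 7 did not pass the threshold, among them KRT10 (0.17 ± 0.22, adjusted p = 0.559) and DSG1 (0.03 ± 0.23, adjusted p = 0.926). ACTA2, on the fibroblast list, rose by 1.85 ± 0.15 (adjusted p = 7.26e-10), and COL1A1, the other tested gene of that list, had -0.63 ± 0.27 (adjusted p = 0.0694). The summed signal of the 8 fibroblast probes was 745 to 1464 on untreated and 1280 to 1767 on EGBG arrays, while COL1A2, COL3A1, PDGFRA, PDGFRB and LUM stayed undetected. Of the 8 probes, 2 or 3 were detected on each EGBG array and 2 on each untreated array. On the immune list CD207 fell (-1.22 ± 0.42, adjusted p = 0.0222) and HLA-DRA rose (0.54 ± 0.15, adjusted p = 0.00564), while CD14 (0.62 ± 0.31, adjusted p = 0.112) and CD68 (0.00 ± 0.17, adjusted p = 0.997) did not pass. The list's summed signal of 4568 to 5530 on untreated arrays and 4433 to 5207 on EGBG arrays overlapped. The melanocyte sum was 516 to 560 on untreated and 376 to 516 on EGBG arrays, and PMEL had -0.50 ± 0.20 (adjusted p = 0.0571). The part of these other markers in the results was not tested.

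SDSM given together with EGBG raised all 8 tested genes over EGBG alone. SERPINA12 was at least 19.9-fold higher (adjusted p = 2.06e-14), with the undetected EGBG arrays again set to the lowest detected signals. The difference was 3.67 ± 0.26 (adjusted p = 2.22e-11) for SPINK7, 3.42 ± 0.34 (adjusted p = 7.93e-09) for SPINK6 and 3.07 ± 0.18 (adjusted p = 9.73e-13) for SERPINB3. SPINK1 rose by 4.23 ± 0.45 (adjusted p = 2.31e-08), or by 3.60 (adjusted p = 1.06e-08) without EGBG replicate 1. SERPINB13 rose by 2.49 ± 0.15 (adjusted p = 6.97e-13) and SERPINB7 by 0.70 ± 0.13 (adjusted p = 7.2e-05), and SERPINB4 was at least 3.22-fold higher (adjusted p = 9.12e-12). The SERPINB7 difference was 1.07 (adjusted p = 1.1e-05) with the deposited table. Of all features, 22.2% were higher, and 20.0% had arrays that did not overlap in that direction, as had the 8 genes. The median difference was 3.25 over the 8 genes, also with SERPINB4 at its bound, and -0.07 over all features. This comparison shares the EGBG arrays with the one against untreated cells. Genes not detected on all EGBG arrays again needed other groups to enter the test, so the count of 8 is a description. Among the markers, ACTA2 had a difference of -2.18 ± 0.15 (adjusted p = 2.05e-11), COL1A1 rose by 0.75 ± 0.27 (adjusted p = 0.0235) and PMEL by 1.10 ± 0.20 (adjusted p = 7.87e-05), and CD14 had -1.24 ± 0.31 (adjusted p = 0.00162). Of 8 keratinocyte markers 1 was higher, IVL (3.87 ± 0.16, adjusted p = 1.6e-15), and 3 were lower, KRT5 (-1.49 ± 0.33, adjusted p = 0.00059), KRT14 (-0.55 ± 0.18, adjusted p = 0.0142) and KRT10 (-0.55 ± 0.22, adjusted p = 0.0373). With both compounds the summed signal was 625 to 742 for the melanocyte, 891 to 1260 for the fibroblast and 3730 to 5460 for the immune probes, and the part of these markers was not tested.

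Set against untreated day 6 cells, cells with both compounds had 2 of the 8 genes higher and 0 lower, beside 8.72% of all features higher and 7.70% lower. SPINK1 was higher by 2.02 ± 0.45 (adjusted p = 0.00294) and SERPINB13 by 0.53 ± 0.15 (adjusted p = 0.0148). The SERPINB13 call was lost without untreated replicate 1 (0.44, adjusted p = 0.06), without replicate 4 of EGBG with SDSM (0.44, adjusted p = 0.0644), and when the 2 groups were fitted alone (adjusted p = 0.0734). For the other 6 genes the intervals of the difference were -0.29 to 1.10 for SPINK6, 0.00 to 1.07 for SPINK7 and -0.23 to 0.73 for SERPINA12. They were -0.09 to 0.66 for SERPINB3, 0.03 to 0.73 for SERPINB4 and -0.20 to 0.33 for SERPINB7. The markers past the threshold here were IVL (0.70 ± 0.16, adjusted p = 0.0035), KRT5 (-1.19 ± 0.33, adjusted p = 0.016), KRT14 (-0.74 ± 0.18, adjusted p = 0.00666) and PMEL (0.60 ± 0.20, adjusted p = 0.0445), whose part was not tested.

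In the presence of SDSM, EGBG changed 0 of the 8 genes by limma, where 0.988% of all features were called (2.52% with the replicate number as a block, again with 0 of the 8). The widest interval was that of SPINK1, -0.94 to 0.90 around -0.02 (adjusted p = 0.993), and the narrowest that of SERPINB7, -0.40 to 0.14 around -0.13 (adjusted p = 0.739). SPINK6 and SPINK7 had unadjusted p-values under 0.05, with differences of 0.77 ± 0.34 (adjusted p = 0.288) and 0.56 ± 0.26 (adjusted p = 0.324). The EGBG effect with SDSM minus the EGBG effect without it was above 0 past the threshold for 7 of 8 genes, beside 9.72% of all features. It was 3.79 ± 0.48 (adjusted p = 2.49e-06) for SPINK6, 3.69 ± 0.37 (adjusted p = 7.15e-08) for SPINK7 and 2.74 ± 0.26 (adjusted p = 3.06e-08) for SERPINB3. SERPINA12 (adjusted p = 1.81e-10) and SERPINB4 (adjusted p = 7.77e-07) also passed, but their fitted values rest on EGBG signals detected on 1 and 0 of 4 arrays and give no size. SERPINB13 had 1.85 ± 0.21 (adjusted p = 3.98e-07) and SPINK1 2.19 ± 0.63 (adjusted p = 0.0159), the last becoming 2.19 with an adjusted p of 0.0629 when undetected probes were kept in the test. SERPINB7 did not pass, with 0.51 ± 0.18 (adjusted p = 0.0558). The count of 7 is a description, as is that for EGBG against untreated cells.

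**Figure D2:**
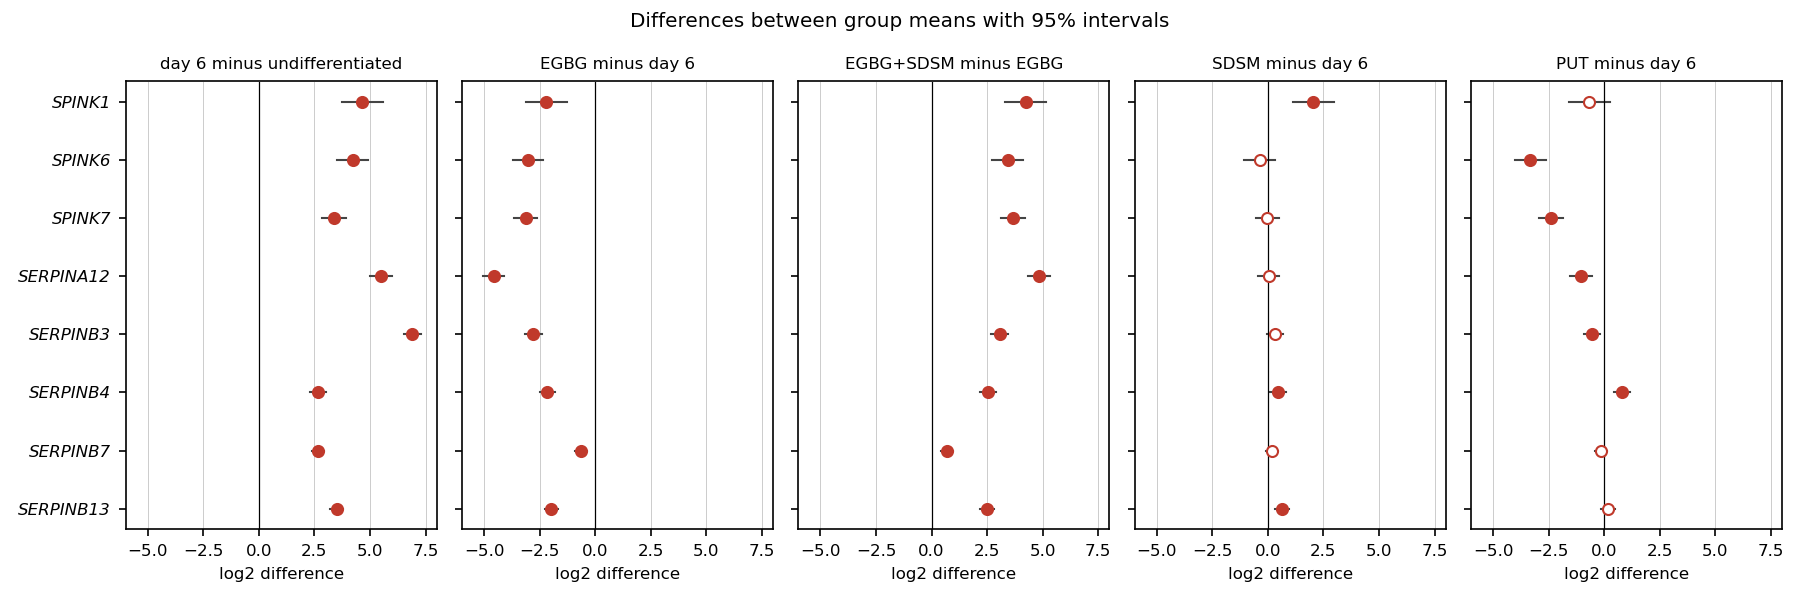
Difference of group means (log2) for each tested gene in 5 comparisons, with the 95% interval as a line; filled points passed an adjusted p of 0.05 and open points did not. All 8 points are filled in the first 3 panels, 3 are filled for SDSM and 5 for putrescine; values of genes undetected in a group rest on signals near the background.

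SDSM alone raised 3 of the 8 genes over untreated day 6 cells and lowered 0, beside 12.3% of all features higher and 13% lower. SPINK1 rose by 2.04 ± 0.45 (adjusted p = 0.0014) and SERPINB13 by 0.65 ± 0.15 (adjusted p = 0.00188). SERPINB4 passed narrowly, with 0.46 ± 0.17 (adjusted p = 0.0491) and overlapping arrays, and lost the call without untreated replicate 2 or 3 or SDSM replicate 2, 3 or 4, with an adjusted p of up to 0.153 (0.38 without SDSM replicate 4). It was also lost in the alternatives without background correction (adjusted p = 0.0811), with 75th percentile scaling (0.33, adjusted p = 0.243), with no detection filter (adjusted p = 0.0975), with array weights (0.48, adjusted p = 0.0624) and with only the groups compared (adjusted p = 0.108). The remaining differences did not pass: 0.33 ± 0.18 (adjusted p = 0.192) for SERPINB3, 0.20 ± 0.13 (adjusted p = 0.28) for SERPINB7, 0.03 ± 0.23 (adjusted p = 0.952) for SERPINA12, -0.02 ± 0.26 (adjusted p = 0.972) for SPINK7 and -0.37 ± 0.34 (adjusted p = 0.449) for SPINK6. SERPINB3 and SERPINB7 arrays did not overlap between the groups all the same, which held in the higher direction for 10.6% of all features. Markers past the threshold with SDSM were IVL (1.04 ± 0.16, adjusted p = 3.73e-05), KRT5 (-1.51 ± 0.33, adjusted p = 0.00154), KRT14 (-0.81 ± 0.18, adjusted p = 0.00185), PMEL (0.78 ± 0.20, adjusted p = 0.00645) and CD68 (-0.51 ± 0.17, adjusted p = 0.031), and their part was not tested.

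Putrescine, the diamine that precedes spermidine, divided the genes. SPINK6, detected on 3 of 4 putrescine arrays, fell by 3.34 ± 0.34 (adjusted p = 6.83e-07) on the log2 scale, and SPINK7 fell by 2.40 ± 0.26 (adjusted p = 1.69e-06). SERPINA12 fell by 1.04 ± 0.23 (adjusted p = 0.0036), and SERPINB4 rose by 0.80 ± 0.17 (adjusted p = 0.0026). SERPINB3 had -0.55 ± 0.18 (adjusted p = 0.0409), a call that was lost without untreated replicate 1, 2 or 4 or putrescine replicate 1, 2 or 4 (adjusted p up to 0.12, with -0.49 without putrescine replicate 1). The SERPINB3 call was also lost without background correction (adjusted p = 0.102), with 75th percentile scaling (adjusted p = 0.0948) with the deposited table (-0.64, adjusted p = 0.167) and with no detection filter (adjusted p = 0.0909), and the second SERPINB3 probe had -0.48 ± 0.23 (adjusted p over all probes = 0.165). Together 4 genes were lower and 1 was higher, beside 7.0% of all features lower and 9.58% higher. All 4 lower genes and SERPINB4 had arrays that did not overlap with the untreated ones, which held for 7.61% of all features in the lower and 11.3% in the higher direction. SPINK1 (-0.67 ± 0.45, adjusted p = 0.32), SERPINB7 (-0.15 ± 0.13, adjusted p = 0.453) and SERPINB13 (0.17 ± 0.15, adjusted p = 0.467) did not pass. Whether SERPINB3 and SERPINB4 differed from each other in their response was not tested. Markers past the threshold with putrescine were CD14 (1.40 ± 0.31, adjusted p = 0.00317), PMEL (0.69 ± 0.20, adjusted p = 0.0231) and ACTA2 (0.49 ± 0.15, adjusted p = 0.0312), with 0 of 8 keratinocyte markers, and their part was not tested. The SDSM, putrescine and EGBG comparisons share the untreated arrays.

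SDSM and putrescine were both labelled as 1 mM and were added on the same day, so they could be set side by side, apart from the ambiguous dose of each polyamine in SDSM. Spermidine and spermine carry aminopropyl groups that putrescine lacks. With SDSM, 6 of the 8 genes were higher than with putrescine, beside 7.10% of all features. SPINK6, detected on 3 putrescine arrays, differed by 2.97 ± 0.34 (adjusted p = 2.84e-06), SPINK1 by 2.71 ± 0.45 (adjusted p = 0.000183) and SPINK7 by 2.38 ± 0.26 (adjusted p = 2.14e-06). SERPINA12 differed by 1.07 ± 0.23 (adjusted p = 0.0025), SERPINB3 by 0.87 ± 0.18 (adjusted p = 0.00173) and SERPINB13 by 0.48 ± 0.15 (adjusted p = 0.0248). With the deposited table the SERPINB3 call was lost (0.70, adjusted p = 0.132). The SERPINB13 call was lost without SDSM replicate 1 or 4 or putrescine replicate 2 or 4, with adjusted p from 0.0511 to 0.057. The markers IVL (0.78 ± 0.16, adjusted p = 0.00143), KRT14 (-0.65 ± 0.18, adjusted p = 0.0159), ACTA2 (-0.84 ± 0.15, adjusted p = 0.00055) and CD14 (-0.99 ± 0.31, adjusted p = 0.0279) also passed, and their part was not tested. SERPINB4 and SERPINB7 did not pass, and the intervals of their differences were -0.69 to 0.01 and 0.08 to 0.62. P-values were adjusted over all features within each of the 10 comparisons made.

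Second probes gave the same directions in the main comparisons. With EGBG against untreated cells the other probe of SPINK6 had a difference of -2.73 ± 0.32 (adjusted p over all probes = 2.32e-07), that of SERPINB3 -2.70 ± 0.23 (adjusted p = 1.84e-09) and that of SERPINB7 -0.74 ± 0.17 (adjusted p = 0.00155). With putrescine the other SPINK6 probe, detected on 2 putrescine arrays, had -3.13 ± 0.32 (adjusted p = 8.28e-07). From undifferentiated to day 6 cells the other SERPINB3 probe had a fitted 5.41 ± 0.23, against 6.90 ± 0.18 for the brighter one. The other probe was undetected on every undifferentiated array, so its value gives a direction and no size.

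Over the 24 arrays the signals of the 8 genes were correlated with each other to different degrees, given here as a description because arrays of a group share their treatment. SPINK6 and SPINK7 had a Pearson r of 0.948, and 0.947 over the 20 day 6 arrays. SPINK6 and SERPINB4 had 0.618 and, over the day 6 arrays, 0.365, the lowest of all pairs. SERPINA12 and SERPINB3 had 0.926 and 0.981, and SERPINB3 and SERPINB4 had 0.897 and 0.890. Among all other named genes, the most alike in pattern were PLBD1 (r = 0.989), KLK10 and CNFN (both 0.988) for SERPINB3, and NCCRP1, KPRP (both 0.993) and LYPD5 (0.992) for SERPINB13. For SERPINB7 they were ATP12A (0.990), KLK11 and HOPX (both 0.988), for SERPINB4 LCE1C (0.975), AQP9 (0.973) and EGLN3 (0.972), and for SERPINA12 LIPN, EPS8L1 and BPIFC (all 0.981). SPINK1 was nearest to ZNF365 (0.982), GCNT3 and FKBP15 (both 0.967), SPINK6 to TMEM54 (0.935), APOD (0.914) and BDH1 (0.913), and SPINK7 to NKPD1 (0.939), LRRC20 and APOD (both 0.929). The genes nearest to SPINK6 and SPINK7 thus included a shared one, APOD, and each r is over 24 arrays.

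The clade B serpin genes of chromosome 18 lie in a row, which the RefSeq annotation of GRCh38.p14 orders as SERPINB5, SERPINB12, SERPINB13, SERPINB4, SERPINB3, SERPINB11, SERPINB7, SERPINB2, SERPINB10, HMSD and SERPINB8. At the ends of the row, SERPINB5 (maspin) rose from undifferentiated to untreated day 6 cells by 1.09 ± 0.17 (adjusted p = 6.88e-06). It did not pass the threshold with EGBG (0.35 ± 0.17, adjusted p = 0.116). SERPINB8 rose by 2.37 ± 0.18 (adjusted p = 5.40e-11) and had a difference of -2.16 ± 0.18 with EGBG (adjusted p = 1.41e-09). SERPINB11, SERPINB10 and HMSD were undetected on all arrays, and SERPINB2 had no probe listed. On chromosome 5 the order was SCGB3A2, C5orf46, SPINK5, SPINK14, SPINK6, MARCOL, SPINK13, SPINK7 and SPINK9. Besides SPINK6 and SPINK7 the only tested gene of that stretch was C5orf46, which rose by 4.30 ± 0.18 (adjusted p = 2.58e-16) and had a difference of -3.04 ± 0.18 with EGBG (adjusted p = 1.89e-12). Probes of SPINK14, SPINK13 and SPINK9 were undetected on all arrays.

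**Figure D3:**
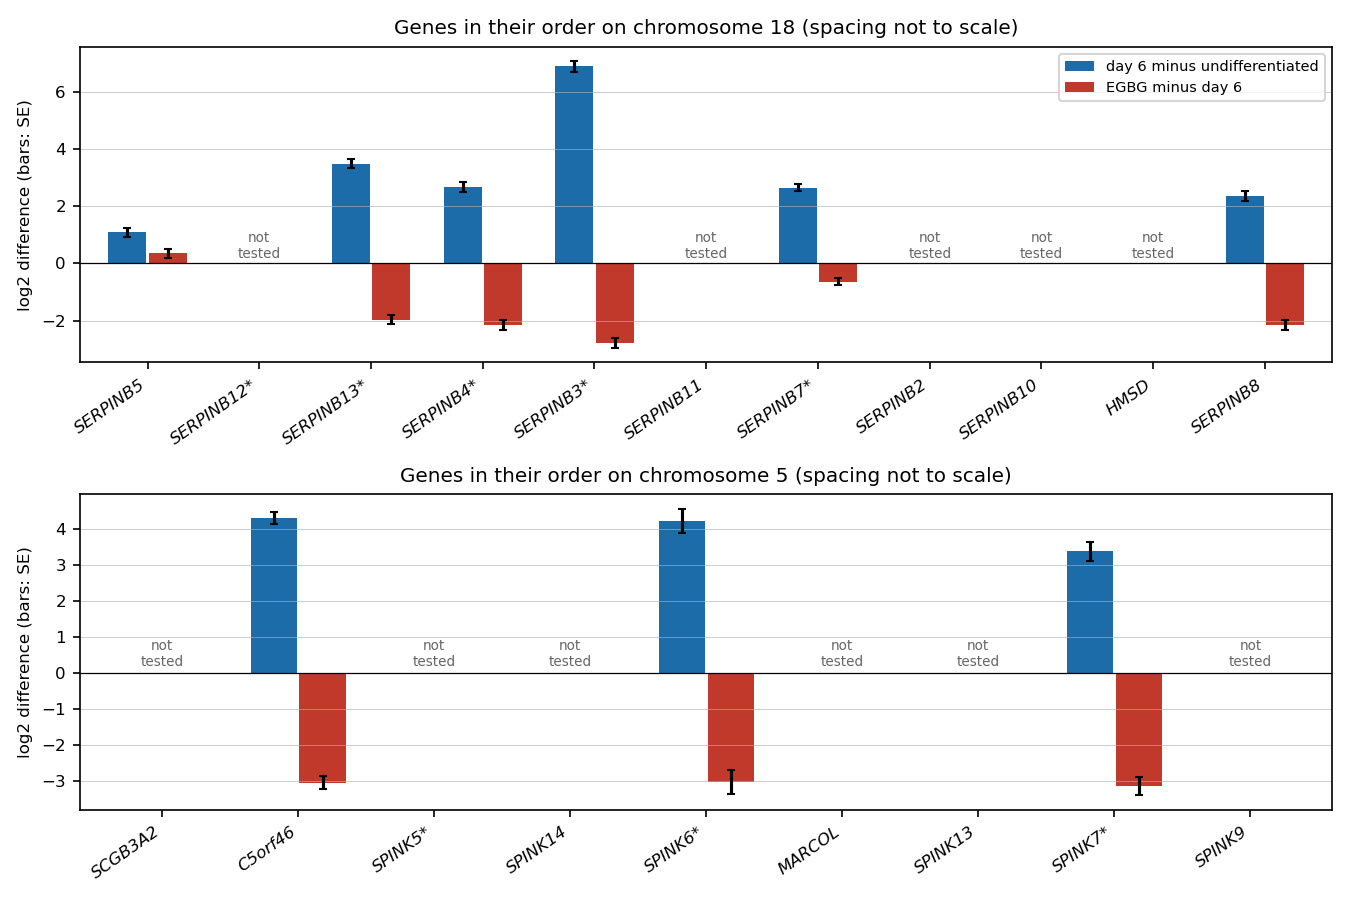
Log2 differences, with the standard error, of genes in their order along chromosome 18 (top) and chromosome 5 (bottom), from undifferentiated to untreated day 6 cells and from untreated to EGBG cells; asterisks mark the inhibitor genes followed here and genes without a detected probe are labelled as not tested. SERPINB5 is the single tested gene with both bars above 0.

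Other protease inhibitors of the array, 23 tested of 46 listed, showed both directions at day 6, with 15 higher and 6 lower than in undifferentiated cells, beside 23.8% and 33.8% of all features. WFDC12 and WFDC5, inhibitors with WAP domains, rose at least 81.4-fold and by 6.62 ± 0.24 (adjusted p = 1.56e-17), and SLPI, an elastase inhibitor of epithelia, by 5.66 ± 0.31 (adjusted p = 5.40e-14). TFPI2, an inhibitor of plasmin and of trypsin, fell at least 21.2-fold. With EGBG 14 were lower and 1 was higher, beside 17.7% and 21.3% of all features, with a median difference of -0.80, or -0.60 with 3 genes undetected in 1 group at their bounds. SDSM beside EGBG raised 13 and lowered 3, beside 22.2% and 29% of all features. WFDC12 had a difference of -4.57 ± 0.27 with EGBG (adjusted p = 2.75e-12) and rose by 5.34 ± 0.27 when SDSM was added (adjusted p = 6.12e-14). SERPINB1, an inhibitor of neutrophil elastase, was at least 2.91-fold lower with EGBG and at least 9.66-fold higher with SDSM beside it. With SDSM alone 8 were higher and 4 lower, beside 12.3% and 13% of all features, with SERPINB1 higher by 2.37 ± 0.31 (adjusted p = 6.46e-06) and SERPINA9 by 2.09 ± 0.21 (adjusted p = 3.58e-07). With putrescine 1 was higher, SERPINB1 (1.33 ± 0.31, adjusted p = 0.00497), and 3 were lower, among them the epidermal inhibitor A2ML1 (-0.74 ± 0.22, adjusted p = 0.0219). Of all features, 9.58% were higher and 7.0% lower.

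Genes of a list of proteases and related genes, 28 tested of 42 listed, moved in the same comparisons. Which of them the inhibitors followed here act on was not tested. At day 6, 18 were higher and 4 lower, beside 23.8% and 33.8% of all features. ASPRV1, a protease that processes filaggrin, rose at least 55.0-fold, KLK6 at least 39-fold, and KLK7 and KLK11, kallikreins of the epidermis, by 6.40 ± 0.20 (adjusted p = 1.12e-18) and 5.25 ± 0.16 (adjusted p = 5.52e-19). With EGBG 14 were lower and 1 was higher, beside 17.7% and 21.3% of all features, with a median of -0.72, or -0.53 with 3 genes at their bounds. KLK6 had a difference of -3.51 ± 0.30 (adjusted p = 1.35e-09), KLK9, detected on 1 EGBG array, was also lower (adjusted p = 4.66e-09) and ASPRV1 had a difference of -2.87 ± 0.20 (adjusted p = 2.60e-11), and PRSS27 was at least 2.65-fold lower. SDSM beside EGBG raised 18 and lowered 2, beside 22.2% and 29% of all features, with KLK6 higher by 5.61 ± 0.30 (adjusted p = 1.36e-13). With SDSM alone 14 were higher and 1 lower, beside 12.3% and 13% of all features, with KLK6 higher by 2.57 ± 0.30 (adjusted p = 1.59e-06). With putrescine 6 were higher and 3 lower, beside 9.58% and 7.0% of all features, KLK6 by 1.82 ± 0.30 in the higher (adjusted p = 0.000211) and PLAU, urokinase, by -1.03 ± 0.20 in the lower direction (adjusted p = 0.00102). The medians with putrescine were -0.61 for the 8 SPINK and serpin genes, -0.07 for the other inhibitors, 0.15 for the proteases and 0.03 for all features.

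**Figure D4:**
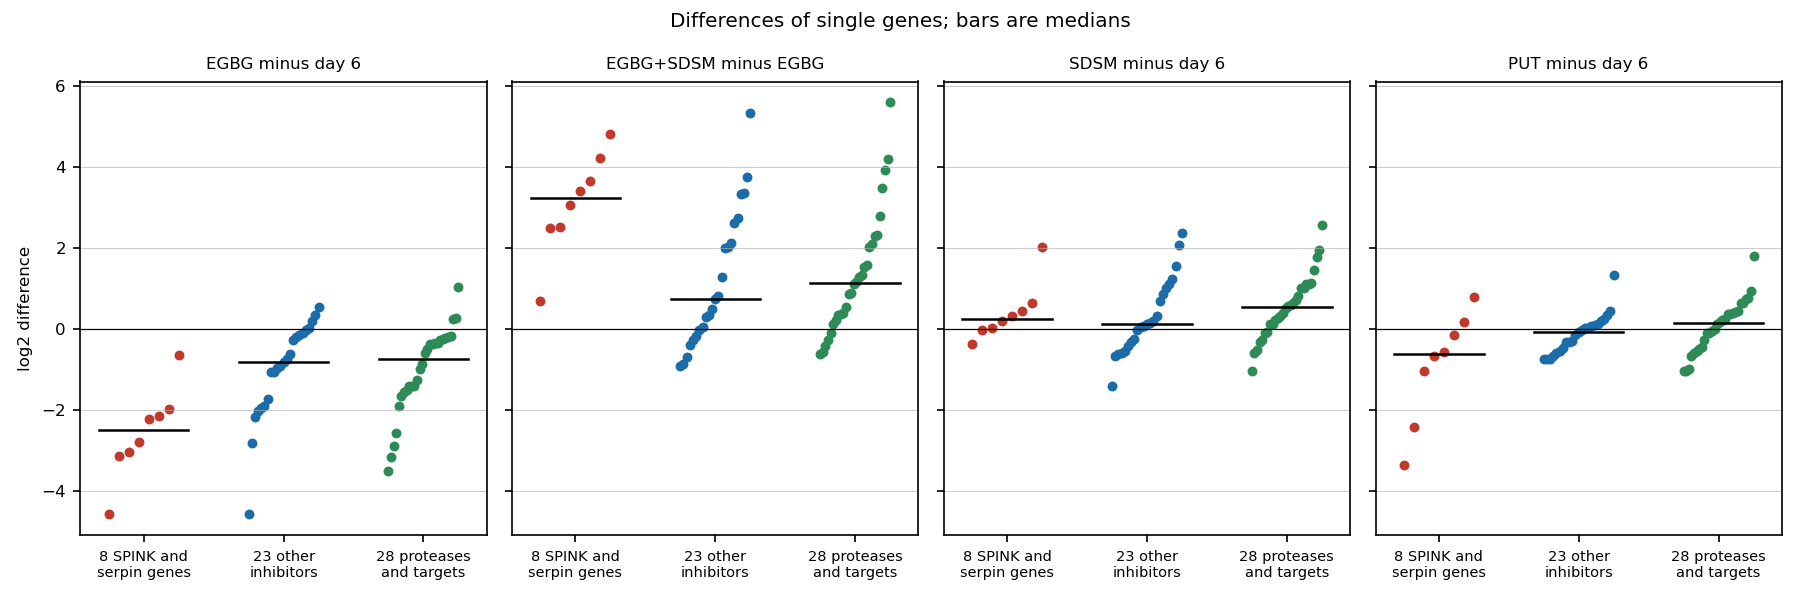
Log2 differences of single genes in 4 comparisons. The sets are the 8 tested SPINK and serpin genes, 23 other inhibitors and 28 proteases and related genes, labelled as proteases and targets. Points are genes in order of their value and bars are medians. With EGBG the medians are -2.50, -0.80 and -0.72, and with putrescine -0.61, -0.07 and 0.15.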

How the data were processed

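Total RNA of N/TERT1 cells had been measured on 24 arrays, and groups and replicate numbers were taken from the labels. The submitters' processing notes name GenomeStudio, with no version. Linear intensity values come from the authors' series matrix, which by its values is background-subtracted on each array but not normalized between arrays. A further table, per the file headers, holds a signal and a detection p-value per probe. Its signals, deposited as non-normalized, look normalized towards the first undifferentiated array, with 40 as the lowest value. Probes of the genes followed that stand at 40 on all 24 arrays had negative series matrix intensities on that first array. Some of these probes had high intensities on other arrays, such as SPINK1 with 5802 on SDSM replicate 3. The detection p-values were therefore used and the signals served as an alternative. The design had assumed the signals of that table to be raw.

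R 4.3.3 with limma 3.58.1 was used, and intensities went through neqc (background from detection p-values, offset 16, quantile, log2). Of 47304 probes, 14304 had detection p under 0.01 on at least 4 arrays. The brightest probe stood for a gene, which gave 12149 features, 9034 of them with a symbol. A single lmFit and eBayes fit over the 6 groups gave 10 two-sided contrasts with Benjamini-Hochberg adjustment over all features. The procedure was tested on simulated data for EGBG against untreated cells, with 50 features changed at each size. It recovered 24% of log2 changes of 0.5, 78% of changes of 1 and 100% of changes of 2, beside 10 false calls. Where a probe was undetected on every array of a group, bounds set the brighter group's mean against the lowest detected signals of the other, or the probe's own signal if higher. For SERPINA12 with EGBG and SPINK6 in undifferentiated cells, each detected on 1 array, this was done for the undetected arrays. The number of arrays limits the precision.

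The genes followed, the lists beside them and the alternatives were chosen with earlier results of these data known. Named genes are those of the rule (the 10 genes, AMD1, cell type markers, from each list of inhibitors and proteases the up to 4 largest called changes in the first 3 comparisons and up to 2 in the others, and the 3 most correlated genes per tested gene). Neighbours were named by position and fall outside it. Protein sequences were not analysed here.

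Whether replicate numbers pair the arrays was checked by correlating their deviations from the group means. Every pair was above 0.1 for EGBG against untreated cells (0.287 to 0.571). So was every pair for EGBG with SDSM against SDSM (0.253 to 0.391) and for SDSM against putrescine (0.19 to 0.337). In the other comparisons pairs lay on both sides of 0. For EGBG with SDSM against EGBG they ran from -0.097 to 0.515, and for putrescine against untreated cells from -0.188 to 0.471. In both of these only the pair of replicate 1 was below 0.

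Alternatives were no background correction, 75th percentile scaling, the deposited table with a floor, no detection filter, detection on at least 12 arrays, the mean of a gene's probes, array weights, the replicate number as a block, only the groups compared, and each array left out.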

Additional observations from a re-analysis of the deposited data

Results flagged for a closer look

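EGBG had different effects with and without SDSM by a test of the interaction (effect with SDSM minus effect without), and 7 of 8 genes were past the threshold. The differences were 4.80 for SERPINA12, 3.79 for SPINK6, 3.69 for SPINK7, 2.74 for SERPINB3, 2.19 for SPINK1, 2.07 for SERPINB4 and 1.85 for SERPINB13, where those of SERPINA12 and SERPINB4 give no size because their EGBG signals were detected on 1 and 0 of 4 arrays. For SPINK1 it was 1.56 (adjusted p = 0.0239) without EGBG replicate 1.

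Among 48 groups of 4 arrays checked, 2 held an array far from the other 3, and chance gives about 1 in 20. SERPINA12 read 5.40 on undifferentiated replicate 2 and 5.26 to 5.27 on the others, all undetected. SERPINB7 read 13.89 on EGBG replicate 2 and 14.12 to 14.15 on the others.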

How the results depend on the processing

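The 80 results (8 genes in 10 comparisons) were refitted 1424 times. In 1365 refits the direction and the side of the threshold were kept, in 59 the call changed, and 0 reversed. For 52 results no refit changed the call. With the replicate number as a block all 80 kept theirs, for example SERPINB3 with putrescine, and the block moved the count of all called features by over 1.5 times only for EGBG with SDSM against SDSM (306, against 120).

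In the deposited table with a floor, SPINK1, SERPINA12 and SERPINB4 stand at 40 on 24 of 24 arrays, including those on which they were detected. In that table their differences are 0 by construction. With it 5 genes were called at day 6 against undifferentiated cells, 5 with EGBG, 5 with SDSM beside EGBG against EGBG, 1 for both compounds against untreated cells, 1 with SDSM, 2 lower with putrescine, 4 for SDSM against putrescine (without SERPINB3) and 4 for EGBG against undifferentiated cells. For both compounds against untreated cells 1 gene was called when only the groups compared were fitted, and 1 to 2 when an array was left out. SERPINB7 passed for the interaction with array weights (0.56, adjusted p = 0.0267), detection on at least 12 arrays (0.51, adjusted p = 0.049), the deposited table (0.86, adjusted p = 0.0104) and without untreated replicate 3 (0.55, adjusted p = 0.0429). It passed for SDSM against putrescine with 75th percentile scaling (0.48, adjusted p = 0.026), the deposited table (0.51, adjusted p = 0.0352), array weights (0.34, adjusted p = 0.027) and only the groups compared (0.35, adjusted p = 0.0427).

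Counts of all called features moved by over 1.5 times for both compounds against untreated cells (1994; 1294 with the deposited table, 851 with only the groups compared) and against SDSM (120; 54 with the deposited table, 263 with array weights, 3 with only the groups compared, and 30 to 199 when an array was left out). They also did so for SDSM against untreated cells (3083; 1944 with only the groups compared), for SDSM against putrescine (2069; 1341 with the deposited table) and for putrescine (2015; 1204 with the deposited table, and 1292, 1194 and 1328 without untreated replicate 1, putrescine replicate 1 and putrescine replicate 4). The cause was not tested. For SPINK1, SERPINA12 and SERPINB4, undetected in undifferentiated cells, the size of the difference rests on signals near the background. Without background correction SPINK1 had 5.67, SERPINA12 6.70 and SERPINB4 3.83 at day 6.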
